A study of Mus musculus with 12 samples.

Results

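The contacts described here belong to 20 CaptureC baits of mouse embryonic stem cells (ESCs) that do not appear in the list of 24 classical Polycomb target genes used as baits in the same table. They were found by position. An interaction was kept when the chromosome and start of its bait matched none of the listed baits, which left 428 of 842 interactions. The table marks sites bound by both RING1B and PCGF2, called PCGF2 sites below. None of the 20 bait fragments overlapped such a site (0 of 20), whereas all 24 listed bait fragments did. Among the contacted regions, 27 overlapped a PCGF2 site and 401 did not.

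CaptureC reads out, from crosslinked and ligated chromatin, which restriction fragments lie near a chosen bait fragment. The 12 samples formed 4 groups of 3 biological replicates, all in the E14 strain. PRC1CPM cells (clone 41, 1 clone) carry Ring1a with the I50A and D53K substitutions, a Ring1b gene that ERT2-Cre expressed from Rosa26 converts to the I53A and D56K form, and were left untreated (UNT) or kept for 72 h in 800 nM of the Cre inducer 4-hydroxytamoxifen (OHT). PRC1DEG cells express Tir1, lack Ring1a and carry Ring1b with an auxin-inducible degron, and were compared with Control cells that express Tir1 alone. Cells of both lines received 0.5 mM auxin for 6 h. PRC1DEG and Control therefore differ in Ring1a as well as in the degradation of RING1B, and these cannot be told apart. The deposited table holds 1 value per group, merged from the replicates by the authors, so no difference below can be set against the spread between replicates and no p-value is given. The 4 merged libraries are treated as 4 samples, and the contacts of 1 bait share that bait's reads.

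PRC1, short for Polycomb repressive complex 1, attaches ubiquitin to histone H2A at the CpG islands of repressed developmental genes. Canonical PRC1, which can contain PCGF2, is known to bring distant Polycomb target sites together in the ESC nucleus. Promoters of active genes also lie in CpG islands, but are usually free of canonical PRC1, and their contacts are known to follow distance from the bait and the borders of topological domains. Whether the genes at the baits were active was not measured here. The transcription start site (TSS) of a protein-coding gene lay inside 18 of the fragments, and all 20 had one inside or within 0.2 kb. The remaining 2 were the Tmco1 bait, 0.14 kb from the Tmco1 TSS, and a fragment of the non-coding gene Sox2ot that ends 0.13 kb from the TSS of Sox2, a pluripotency transcription factor. The latter is called the Sox2ot bait below.

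The bait and contacted fragments were read from the mouse genome GRCm38 by position. Windows of 150 bases around the centre of 3 baits and 4 contacted fragments are shown to let the base composition of both ends be compared. Letters run 5′ to 3′ on the plus strand, and capitals mark CG dinucleotides, the feature that defines a CpG island. The Pim3 bait window was chr15:88862081-88862230, that of Uqcrfs1 was chr13:30545197-30545346 and that of Nfkbia was chr12:55492661-55492810.
Pim3 bait: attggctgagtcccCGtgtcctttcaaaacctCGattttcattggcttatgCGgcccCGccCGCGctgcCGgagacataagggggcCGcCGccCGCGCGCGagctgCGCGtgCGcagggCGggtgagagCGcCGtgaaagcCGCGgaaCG
Uqcrfs1 bait: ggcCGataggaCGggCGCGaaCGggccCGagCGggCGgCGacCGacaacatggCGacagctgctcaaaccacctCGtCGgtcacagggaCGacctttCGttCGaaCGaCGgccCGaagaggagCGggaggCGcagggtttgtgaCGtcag
Nfkbia bait: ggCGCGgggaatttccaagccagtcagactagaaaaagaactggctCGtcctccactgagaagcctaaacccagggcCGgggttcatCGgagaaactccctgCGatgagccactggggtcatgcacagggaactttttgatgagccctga
These windows held 22, 22 and 6 CG dinucleotides. Over the whole fragments, the observed over expected CpG ratio, in which CpG islands stand above the genome, was 1.01 for Pim3, 1.04 for Uqcrfs1 and 0.536 for Nfkbia.

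The contacted windows follow. Notum, which encodes an extracellular esterase that inactivates Wnt ligands, was contacted by Fasn (chr11:120660452-120660601). Shank3, which encodes a postsynaptic scaffold protein, was contacted by Pim3 (chr15:89499113-89499262). The next window lies 6.56 kb from the TSS of Foxf2, a forkhead transcription factor gene, and was contacted by Uqcrfs1 (chr13:31618171-31618320). All 3 are PCGF2 sites. The last window is the intergenic fragment contacted by Nfkbia with the highest mean score of that bait (chr12:55447718-55447867), and is not a PCGF2 site.
Notum fragment: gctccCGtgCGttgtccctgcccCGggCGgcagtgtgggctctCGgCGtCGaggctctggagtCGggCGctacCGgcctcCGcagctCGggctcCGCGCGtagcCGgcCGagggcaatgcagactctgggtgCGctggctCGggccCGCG
Shank3 fragment: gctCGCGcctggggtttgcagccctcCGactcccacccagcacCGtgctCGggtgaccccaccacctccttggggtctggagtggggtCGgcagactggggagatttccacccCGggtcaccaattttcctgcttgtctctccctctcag
Foxf2 fragment: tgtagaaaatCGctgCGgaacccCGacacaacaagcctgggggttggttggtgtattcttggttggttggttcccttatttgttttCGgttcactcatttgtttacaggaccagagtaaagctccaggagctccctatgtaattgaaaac
Nfkbia intergenic fragment: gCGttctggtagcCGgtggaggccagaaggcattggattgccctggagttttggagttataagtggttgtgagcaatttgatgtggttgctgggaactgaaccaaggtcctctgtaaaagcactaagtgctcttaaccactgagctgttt
They held 21, 7, 4 and 2 CG dinucleotides, and their whole fragments had CpG ratios of 0.846, 0.752, 0.390 and 0.252. Across all 20 baits the ratio ran from 0.523 to 1.04 with a median of 0.784. The median of the 24 listed baits was 0.689 (0.343 to 1.24), so the ratio varied widely within both sets. By their medians, the contacted ends were poorer in CpG. The fragment with the highest score of each contact, its summit, had a median ratio of 0.215 at the 401 other sites and 0.291 at the 27 PCGF2 sites. For the listed baits the median was 0.492 at their 130 PCGF2 sites and 0.230 at their 284 other sites.

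Most contacts of the unlisted baits were narrow and close. Of the 428, 330 (77.1%) were 1 DpnII restriction fragment, and the widest covered 157 fragments and 76174 bp. Distance from the midpoint of the bait to that of the contact ran from 8.42 to 4174 kb, with a median of 335 kb and quartiles of 176 and 511 kb. Only 39 contacts lay over 1 Mb away, from 10 baits. By contrast the PCGF2-site contacts of the listed baits had a median distance of 951 kb and reached 51470 kb. The 284 other-site contacts of the listed baits were similar to the 428, with 73.6% of 1 fragment and a median distance of 392 kb. Over all 842 interactions these values were 71.5% and 392 kb, so narrow and close contacts were not particular to the unlisted baits. A protein-coding TSS lay inside 76 of the 428 regions, 134 others overlapped an exon, 94 lay within an intron only and 124 were intergenic. Exons and introns are those of protein-coding genes. Throughout, intergenic means outside protein-coding genes, so non-coding genes may lie there. No contacted region overlapped another of the 20 baits or a listed bait (0 of 428).

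The reads behind each value were few. The values of low contacts were whole multiples of a step, with 1 step in each PRC1CPM library and 2, by set of baits, in each auxin library. These steps gave back the weighted reads that CHiCAGO, the authors' interaction caller, reports after merging replicates. The median contact had 19 weighted reads in UNT, 16 after OHT, 14.5 in Control and 17 in PRC1DEG. At most 3 reads were present for 4, 25, 42 and 33 of the 428 contacts in the same order, and 2 contacts in the PRC1CPM pair and 28 in the auxin pair had at most 3 in both libraries, so that no fold is meaningful there. All contacts together held 33285, 27136, 26675 and 29921 weighted reads. Intervals given below are 95% Wilson intervals on these reads, converted to log2, and cover counting error only.

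A CHiCAGO score compares the reads on a fragment with those expected at its distance, and the methods took a score of 5 or more as an interaction. The median mean score of the 428 contacts was 4.32 in UNT, 3.40 after OHT, 2.67 in Control and 3.03 in PRC1DEG. Scores of the PRC1CPM and the auxin experiments are on separate scales and are compared only within each pair. A summit score of 5 or more was present for 233 contacts in UNT (54.4%, beside 58.8% of all 842 interactions). After OHT it was present for 159 (37.1%, beside 33.6% of all). In the auxin pair it was present for 72 contacts in Control (16.8%, beside 20.1% of all) and 118 in PRC1DEG (27.6%, beside 17.9% of all). The unlisted baits thus had fewer calls after OHT than before, as did all interactions and the other-site contacts of the listed baits (62.0% and 38.4%). They had more calls in PRC1DEG than in Control, where the other-site contacts of the listed baits stood at 10.6% and 9.86%. Weighted reads were also fewer after OHT and more in PRC1DEG, and their part in the calls was not tested.

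**Figure D1:**
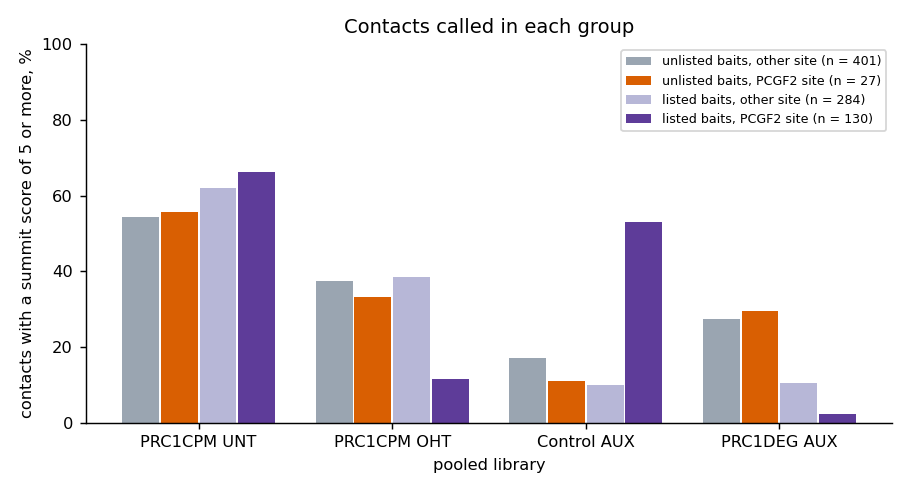
The bars give the share of contacts (vertical axis, percent) with a summit score of 5 or more in each merged library (horizontal axis), for unlisted and listed baits split by kind of site. Contacts of unlisted baits at PCGF2 sites were called in 55.6% in UNT, 33.3% after OHT, 11.1% in Control and 29.6% in PRC1DEG, whereas those of listed baits went from 66.2% to 11.5% and from 53.1% to 2.31%.

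More than 1 library called 99 of the 428 contacts (23.1%, beside 21.4% of all 842). A summit score of 5 or more was met in 1 library by 328 of the 428 contacts, in 2 by 53, in 3 by 36 and in all 4 by 10, and 1 contact met it in none. Of those met in 1 library, 161 were in UNT, 91 after OHT, 26 in Control and 50 in PRC1DEG. The 10 contacts called throughout were wide, with a median of 34 fragments and 488 reads in UNT, and belonged to Aplp1, Ckap2, Fasn, Nfkbia, Rbm17, Tagln2 and Uqcrfs1. None of them was a PCGF2 site. Because a contact enters the table through the library that called it, the change of a contact depends on where it was called. Those called in UNT alone had a median log2 change of -0.51 after OHT and those called after OHT alone 0.25, both of which the choice of contacts fixes.

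Changes are log2 ratios of the mean normalized read count per fragment with a pseudocount of 0.000350. After OHT the median change of all 428 contacts was -0.22 (quartiles -0.50 and 0.03). Of the 428, 309 were lower (72.2%, beside 73.8% of all 842) and 119 higher. At PCGF2 sites the median was -0.22 for 27 contacts, and at other sites it was -0.21 for 401 contacts. Over all 842 interactions the median was -0.27, and over the 284 other-site contacts of the listed baits -0.17. Centred on the median of all interactions, the contacts of the unlisted baits lay at 0.05, so the sign after OHT depends on what the libraries are scaled to. Chosen instead by a call in an auxin library, 157 contacts had a median of -0.16 after OHT. Their regions were still merged from the calls of all libraries, and 54 of the 157 were also called in UNT and 50 after OHT.

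In PRC1DEG against Control the median was 0.06 (quartiles -0.13 and 0.34). Of the 428, 169 were lower (39.5%, beside 50.2% of all 842) and 259 higher (60.5%, beside 49.8% of all). The median was 0.12 at the 27 PCGF2 sites and 0.06 at the 401 other sites. It was -0.00 over all 842 interactions and 0.09 over the other-site contacts of the listed baits. Centred on the latter, the contacts of the unlisted baits lay at -0.03. The 130 PCGF2-site contacts of the listed baits had medians of -0.91 after OHT and -1.79 in PRC1DEG. Restricted to the 73 of these that lay no farther than the farthest of the 27, their medians were -0.80 and -1.31. The 27 and the 73 contacts differed in their baits and also in median reads in UNT (29 and 154) and median summit CpG ratio (0.291 and 0.473), and the part of these in the medians was not tested.

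**Figure D2:**
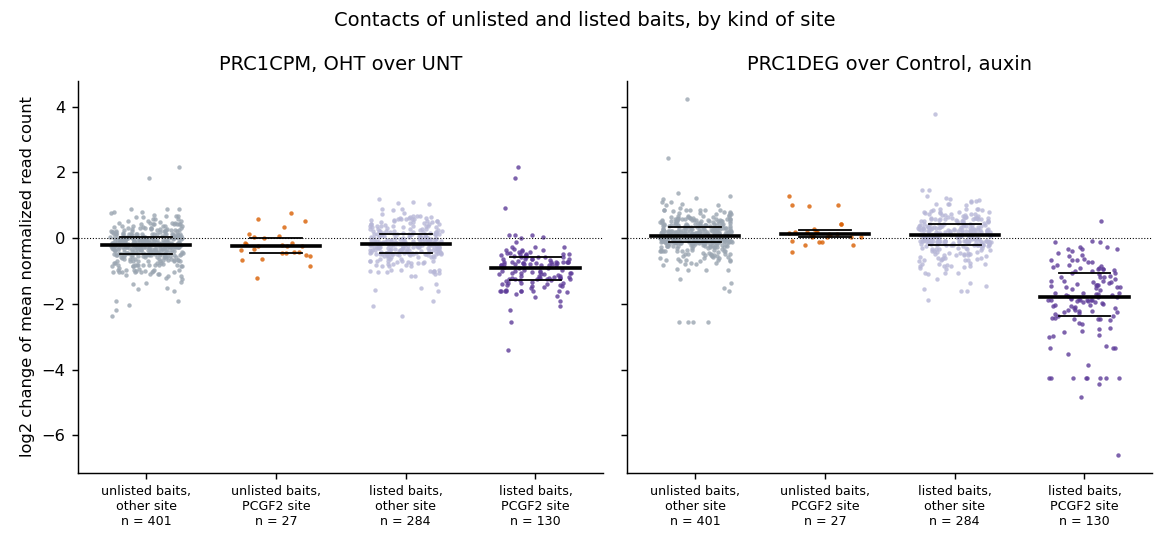
Each point is 1 contact, with its log2 change of mean normalized read count on the vertical axis, for PRC1CPM (left) and the auxin pair (right). Long bars are medians and short bars quartiles. The 27 PCGF2-site contacts of unlisted baits lie around -0.22 and 0.12, next to the other-site contacts, whereas the 130 of listed baits lie around -0.91 and -1.79.

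Contacts past a fold of 1.5 were counted next. After OHT 82 of 428 contacts (19.2%) were lower by that fold, beside 26.6% of all 842, and 17 (3.97%) were higher, beside 4.75% of all. Centred on the other-site contacts of the listed baits, 54 were lower after OHT (19.2% of all 842) and 35 higher (8.91% of all). In PRC1DEG 28 (6.54%) were lower, beside 21.3% of all, and 47 (11.0%) were higher, beside 11.3% of all. Without contacts of at most 3 reads in both auxin libraries, 16 of 400 were lower (19.7% of the 790 interactions so kept) and 41 higher (11% of these). At the 27 PCGF2 sites 4 were lower and 2 higher after OHT, and 0 were lower and 4 higher in PRC1DEG. Of the listed PCGF2-site contacts, 98 of 130 were lower after OHT and 117 in PRC1DEG. Of the counting intervals after OHT, 29 lay below 0 (14.7% of all 842) and 0 above (0% of all). Set against the median of all interactions, 3 lay below (7.72% of all) and 14 above (4.87% of all). In PRC1DEG 2 lay below 0 (13.1% of all) and 8 above (3.21% of all). Among the 428, 12 contacts were lower by 1.5-fold in both systems (2.80%, beside 13.8% of all 842), and 14 were lower after OHT and higher in PRC1DEG (3.27%, beside 2.73% of all).

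A binomial test of the weighted reads, which compares the merged libraries and not the conditions, called 6 of the 428 contacts lower after OHT (9.03% of all 842) and 0 higher (0% of all). In PRC1DEG it called 1 lower (9.86% of all) and 0 higher (0.831% of all). Adjustment was by Benjamini-Hochberg over all 842. These 7 calls were picked out after their values were seen. The contact of the Ckap2 bait over 157 fragments that hold the TSSs of Vdac3, a mitochondrial channel gene, and Dkk4, a Wnt antagonist gene, had 1063 reads in UNT, 706 after OHT, 927 in Control and 834 in PRC1DEG. It was the one contact called lower in both pairs. The others called after OHT were a second Ckap2 contact at Slc25a15 (513 and 362 reads), a Cpt1a contact near Gal (243 and 159), a Pim3 contact at Plxnb2 (920 and 708), a Tagln2 contact at Pigm (989 and 750) and a Tpm4 contact in Med26 (126 and 70). Each of the 6 was wide (6 to 157 fragments) and had 126 or more reads in UNT. The test was run against a change of 0 and not against the median shift of the libraries.

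All 20 baits had a median change below 0 after OHT, from -0.52 for Fkbp9 to -0.01 for Fasn, and summed normalized reads of all contacts were likewise lower for all 20 (log2 -0.42 to -0.04). In PRC1DEG 14 medians lay above 0 and 6 below, from -0.11 for Fkbp9 to 0.23 for Tomm7. Against the median of all interactions, 12 of the 20 baits lay above and 8 below after OHT, and in PRC1DEG 14 above and 6 below. Against the other-site contacts of the listed baits, 5 lay above after OHT and 8 in PRC1DEG. The 20 baits share the same merged libraries, so their common sign is not a count of independent observations. Below, reads of a bait or contact are given in the order UNT, OHT, Control and PRC1DEG, and pairs of log2 medians or changes in the order OHT and PRC1DEG, uncentred.

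**Figure D3:**
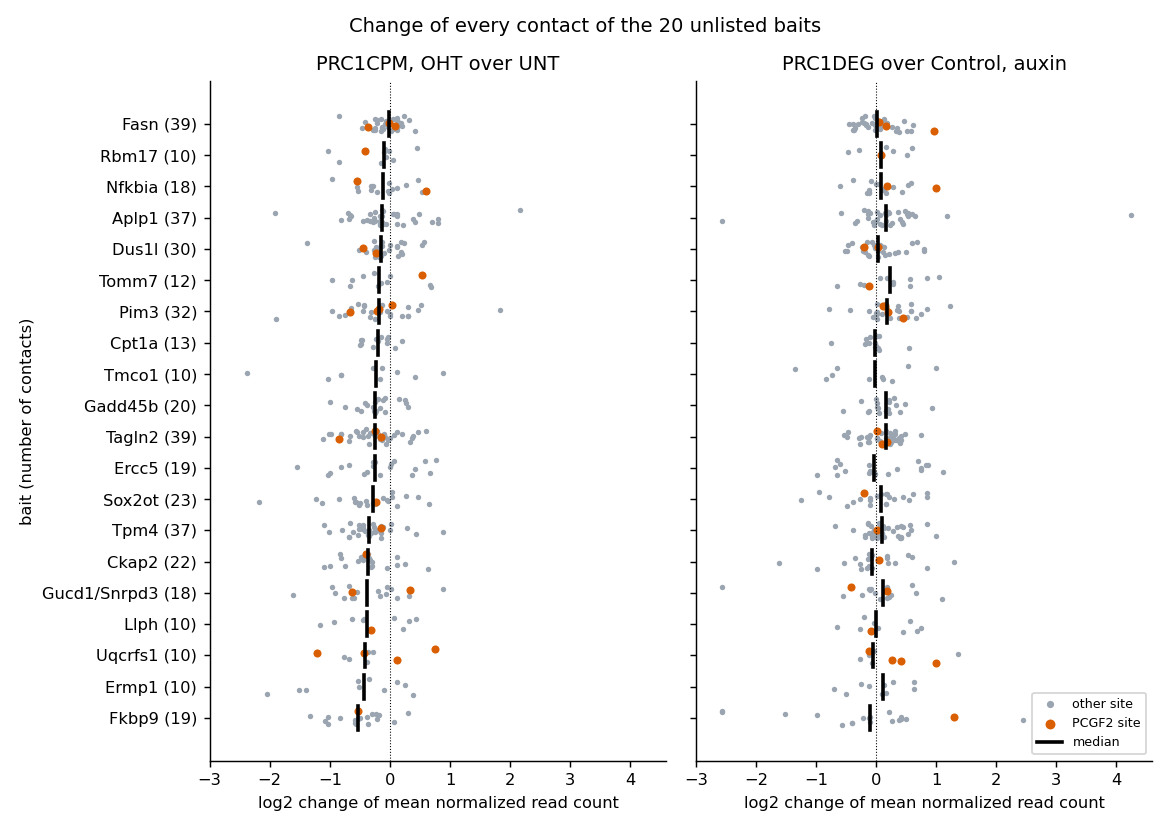
Rows are the 20 unlisted baits with their number of contacts, and points are single contacts at their log2 change of mean normalized read count (horizontal axis) in PRC1CPM after OHT (left) and PRC1DEG over Control (right). Black bars are bait medians and orange points PCGF2 sites. All 20 medians lie below 0 on the left, where 12 lie above the median of all interactions (-0.27), and 14 of 20 lie above 0 on the right.

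Baits at genes of metabolism and mitochondria were Fasn, Cpt1a, Uqcrfs1 and Tomm7. Fasn encodes fatty acid synthase, and its bait had 39 contacts with 3997, 3554, 3842 and 4280 weighted reads in UNT, after OHT, in Control and in PRC1DEG. Its median changes were -0.01 after OHT and 0.02 in PRC1DEG, the nearest to 0 of any bait after OHT. Cpt1a, the carnitine palmitoyltransferase that admits fatty acids to mitochondria, had 13 contacts (chr19:3322564-3323531) with 1153, 886, 1075 and 1105 reads and medians of -0.20 and -0.01. These were the closest contacts of any bait, with a median distance of 119 kb, and none reached a PCGF2 site. Tomm7, a subunit of the mitochondrial import translocase, had 12 contacts with 298, 238, 236 and 256 reads and medians of -0.17 and 0.23.

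Uqcrfs1 encodes the Rieske iron-sulfur protein of respiratory complex III. Its bait (chr13:30545007-30545536) had 10 contacts, of which 4 reached PCGF2 sites, the largest share of any of the 20. They lay 1068 to 1077 kb away and 3.02 to 12.3 kb from the TSS of Foxf2. Reads at these 4 were 8, 7, 7 and 9 in UNT, 3, 11, 7 and 6 after OHT, 3, 4, 4 and 2 in Control and 4, 4, 9 and 3 in PRC1DEG. The sign of the change differed among these 4 neighbouring fragments in both pairs, and with so few reads no difference could be detected. Another 3 contacts of this bait had Foxf2 as nearest TSS but were not PCGF2 sites, with 9, 8 and 8 reads in UNT. A wider contact of 12 fragments near Agtr1a, 276 kb away, held 157 reads in UNT, 109 after OHT, 102 in Control and 106 in PRC1DEG, more than all the others of this bait together in each library.

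Genes of RNA biology were Dus1l, a dihydrouridine synthase that modifies RNA, Rbm17, a splicing factor, and Snrpd3, an Sm protein of the spliceosome that shares its bait fragment with Gucd1. Dus1l (chr11:120796058-120796706) had 30 contacts with 3861, 3189, 3740 and 3906 reads and medians of -0.14 and 0.03. Rbm17 had 10 contacts with 1374, 1156, 1158 and 1348 reads and medians of -0.10 and 0.08. The Gucd1 and Snrpd3 fragment (chr10:75517822-75518383) had 18 contacts with 572, 454, 401 and 455 reads, the farthest at 4174 kb, and medians of -0.38 and 0.12. All 3 baits had a negative median after OHT and a positive one in PRC1DEG.

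Fasn and Dus1l are neighbours, with 27.2 kb between the bait fragments, and they contacted overlapping regions. Contacts of these baits overlapped in 21 pairs, which took in 20 of the 39 of Fasn and 11 of the 30 of Dus1l, and no other baits of the 20 shared a region. Regions with the same ends for both baits numbered 2. The fragment chr11:120812264-120813799, between the baits, had 175, 145, 201 and 215 reads from Dus1l and 276, 233, 310 and 370 from Fasn. Its log2 changes were -0.14 and -0.12 after OHT, and -0.03 and 0.13 in PRC1DEG. The second, chr11:121148138-121148803, had 10 to 18 reads from either bait and changes of 0.12 and 0.42 after OHT, and 0.37 and -0.39 in PRC1DEG. In the auxin pair the baits gave opposite signs at both fragments, with the wider gap at the one with fewer reads.

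Signalling, stress and repair genes were Nfkbia, which encodes the NF-kappa-B inhibitor alpha, Gadd45b, a stress-induced gene, Pim3, a serine/threonine kinase, and Ercc5, an endonuclease of nucleotide excision repair. Nfkbia had 18 contacts with 3085, 2735, 2409 and 2810 reads and medians of -0.12 and 0.08. Gadd45b had 20 with 2407, 2014, 1842 and 2134 reads and medians of -0.24 and 0.17, none at a PCGF2 site. Pim3 had 32, of which 4 were PCGF2 sites, with 2597, 2133, 2182 and 2655 reads and medians of -0.18 and 0.19. In PRC1DEG 27 of its 32 contacts were higher than in Control (84.4%, beside 49.8% of all 842). Of the 32, 0 were called in Control and 12 in PRC1DEG, and that choice of contacts favours higher values in PRC1DEG. In PRC1CPM 22 were lower after OHT (68.8%, beside 73.8% of all). Ercc5 contacts were the most distant as a set, with a median of 1256 kb over 19 contacts, and few reads (471, 379, 246 and 276). Their medians were -0.24 and -0.03.

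Cytoskeletal genes were Tagln2 (transgelin 2), Tpm4 (tropomyosin 4) and Ckap2, which encodes a cytoskeleton-associated protein. Tagln2 had 39 contacts with 2725, 2126, 1776 and 2071 reads and medians of -0.24 and 0.17. Tpm4 had 37 with 2788, 2154, 1882 and 2177 reads and medians of -0.34 and 0.10. Of the 37, 32 were lower after OHT (86.5%, beside 73.8% of all 842). Calls numbered 25 in UNT and 8 after OHT, with 1 contact called in both, and that choice of contacts favours lower values after OHT. Ckap2 had 22 with 2285, 1580, 2113 and 2065 reads and medians of -0.37 and -0.08. The median of Ckap2 was thus below 0 in both pairs, as were those of Fkbp9, Uqcrfs1, Cpt1a, Ercc5 and Tmco1. In PRC1DEG 13 of the 22 Ckap2 contacts were lower (59.1%, beside 50.2% of all 842) and 9 higher. The summed normalized reads of Ckap2 were at log2 -0.40 after OHT, second to Uqcrfs1 (-0.42), and at -0.16 in PRC1DEG, the lowest of the 20.

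The remaining baits lay at Aplp1, an amyloid precursor-like protein gene, Fkbp9, a peptidyl-prolyl isomerase gene of the endoplasmic reticulum, Tmco1, Ermp1, Llph and Sox2ot. Aplp1 had 37 contacts with 2382, 2019, 1913 and 2314 reads and medians of -0.13 and 0.16. Tmco1, Ermp1 and Llph had 10 contacts each, with medians of -0.22, -0.42 and -0.38 after OHT and -0.02, 0.11 and 0.00 in PRC1DEG, on 218, 552 and 521 reads in UNT. Fkbp9 had 19 contacts with 914, 683, 290 and 340 reads, and its medians were the lowest in both pairs. Its quartiles in PRC1DEG were -0.48 and 0.40, and its summed normalized reads were at log2 0.10 there, so the median and the sum differ in sign. Its contact with the most reads had 18 fragments over the TSSs of Nt5c3 and Vmn1r4 with 388, 304, 125 and 159 reads.

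The Sox2ot bait (chr3:34648729-34650279) had 23 contacts with 823, 645, 452 and 484 reads, and medians of -0.28 after OHT and 0.08 in PRC1DEG. It was the 1 unlisted bait whose auxin values were scaled like those of 18 listed baits, while the other 19 were scaled with 6 listed baits. A group of 3 fragments 134 to 148 kb from the bait, in intergenic DNA, had 39, 43 and 42 reads in UNT, 33, 30 and 37 after OHT, 34, 31 and 32 in Control and 45, 31 and 47 in PRC1DEG. They were the closest contacts of this bait. On the other side of the bait, 628 kb away, a contact of 6 fragments held the TSS of Fxr1, an RNA-binding protein gene, with 69, 42, 29 and 33 reads. It was the 1 contact of the 428 whose summit score was under 5 in every library. The PCGF2-site contact of the bait is given below.

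The 6 contacts with the highest mean score in the reference libraries, 1 per bait, were all of 1 fragment and none was a PCGF2 site. Tagln2 contacted an intergenic fragment 8.46 kb from the TSS of Nhlh1, a neuronal transcription factor gene, with 22, 16, 13 and 16 reads. Nfkbia contacted the intergenic fragment printed above, 44.9 kb away, with 106, 84, 74 and 91 reads and log2 changes of -0.21 (interval -0.62 to 0.20) and 0.17 (-0.27 to 0.61). Aplp1 contacted an intron of Capns1, the small calpain subunit gene, with 21, 12, 18 and 13 reads. Having the highest reference scores favours a lower value in the treated libraries, and the intervals of these 3 include 0. Fkbp9 contacted the TSS of Avl9 with 39, 24, 15 and 14 reads, Pim3 the TSS of Dennd6b with 19, 12, 14 and 22, and Ckap2 an intergenic fragment nearest to Mrps31 with 20, 13, 21 and 22. Their changes were -0.57, -0.52 and -0.48 after OHT and -0.23, 0.52 and -0.06 in PRC1DEG. Every interval of these 6 contacts, in both pairs, included 0.

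The 27 PCGF2-site contacts came from 14 baits, and the other 6 baits (Aplp1, Cpt1a, Ercc5, Ermp1, Gadd45b and Tmco1) had none. They spanned 59.4 to 1077 kb with a median of 451 kb, against 334 kb for the other sites. A protein-coding TSS lay inside 12 of them and within 5 kb of 22, while at other sites it lay inside 64 of 401 and within 5 kb of 162. They were called in 1 library in 22 cases, in 2 in 2 and in 3 in 3. Reads were under 20 in UNT for 11 of the 27 and in Control for 14. After OHT 20 were lower (74.1%, beside 73.8% of all 842) and 7 higher. In PRC1DEG 6 were lower (22.2%, beside 50.2% of all) and 21 higher (77.8%, beside 49.8% of all). The binomial test called none of the 27 in either pair.

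The 8 of them with the most reads lay at named genes or, in 1 case, in a gene-poor region. Dus1l met a region of 59 fragments (chr11:120531984-120556779, 252 kb away) that holds the TSSs of Mcrip1 and Ppp1r27 and part of Gcgr, the glucagon receptor gene. It had 708 reads in UNT, 552 after OHT, 659 in Control and 736 in PRC1DEG, with changes of -0.22 (interval -0.39 to -0.07) and 0.03 (-0.12 to 0.18). Fasn met the left part of this region (chr11:120531984-120545357, 30 fragments) with 307, 279, 307 and 347 reads and changes of -0.01 (-0.24 to 0.22) and 0.05 (-0.17 to 0.27). After OHT the interval of the Dus1l contact lay below 0 but held the median of all interactions (-0.27). That of Fasn held 0, and both held 0 in PRC1DEG.

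Pim3 met 55 fragments with the TSSs of Selenoo and Trabd and part of Panx2, a pannexin channel gene (chr15:89068630-89097035, 221 kb away), with 607, 571, 595 and 719 reads. Its changes were 0.04 (-0.12 to 0.20) and 0.14 (-0.01 to 0.30), so this contact was not lower in either treated library. Tagln2 met 18 fragments at Igsf8 and Kcnj9, an inward rectifier potassium channel gene (chr1:172311937-172325739), with 393, 301, 257 and 319 reads and changes of -0.25 (-0.47 to -0.04) and 0.18 (-0.05 to 0.42). Tpm4 met 42 fragments with the TSSs of Jak3, a Janus kinase gene, and Insl3 (chr8:71674209-71693850), with 323, 267, 189 and 210 reads and changes of -0.14 (-0.38 to 0.09) and 0.02 (-0.26 to 0.31). These were each higher in PRC1DEG than in Control by less than counting error.

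Sox2ot met 28 intergenic fragments 685 kb away, 412 kb from the nearest TSS, that of Atp11b (chr3:35327454-35342508), with 249, 194, 134 and 124 reads. It was the one of the 8 with changes of -0.20 or below in both pairs, -0.22 (-0.50 to 0.04) and -0.20 (-0.56 to 0.14), and both intervals include 0. Llph met 29 fragments at Msrb3, a methionine sulfoxide reductase gene (chr10:120888813-120903586), with 234, 170, 136 and 140 reads and changes of -0.32 (-0.62 to -0.05) and -0.08 (-0.43 to 0.25). Ckap2 met 9 fragments with the TSSs of Alg11 and Atp7b, a copper transporter gene (chr8:22059290-22063645), with 150, 103, 124 and 141 reads and changes of -0.41 (-0.77 to -0.05) and 0.06 (-0.29 to 0.40). After OHT the intervals of 4 of the 8 lay below 0, each of them holding -0.27, the median of all interactions, and in PRC1DEG that of none did.

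**Figure D4:**
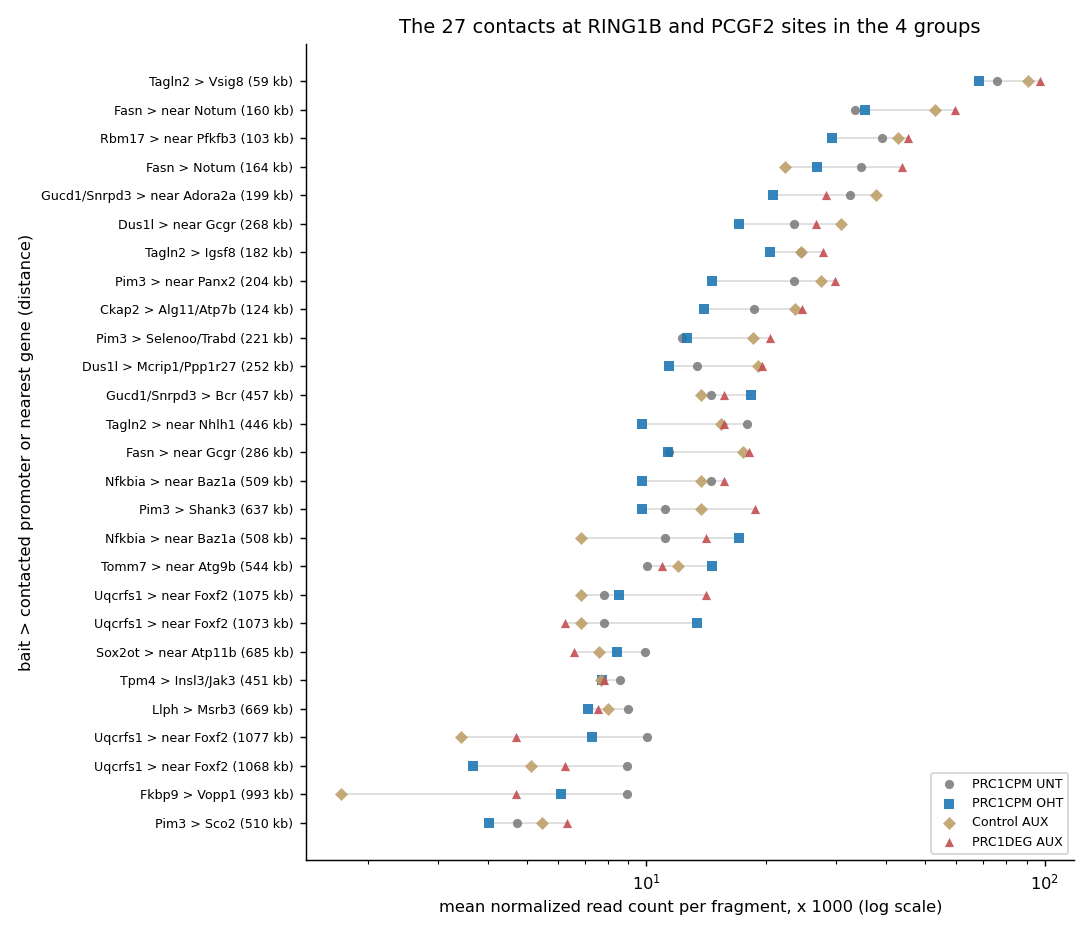
Each row is 1 of the 27 contacts of unlisted baits at a PCGF2 site, with its distance, and the 4 symbols give its mean normalized read count per fragment times 1000 (horizontal axis, log scale) in the 4 merged libraries. The order of the symbols changes from row to row, and the widest spread is at rows with few reads, such as Fkbp9 to Vopp1 with 8, 5, 1 and 3 reads.

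The other 19 had 110 reads or fewer in every library. The highest was a Pim3 contact of 26 fragments with the TSS of Sco2, a gene needed for cytochrome c oxidase assembly, with 110, 86, 83 and 105 reads. The Notum fragment printed above had 31 reads from Fasn in UNT, 22 after OHT, 13 in Control and 28 in PRC1DEG, log2 changes of -0.36 and 0.97. The Shank3 fragment had 10, 8, 8 and 12 reads from Pim3. Nfkbia contacted a pair of fragments in Baz1a, a chromatin remodelling gene, with 13 and 10 reads in UNT, 8 and 14 after OHT, 8 and 4 in Control and 10 and 9 in PRC1DEG. The neighbouring fragments had opposite signs after OHT, -0.56 and 0.60. Of the 27, Notum was 1 of the 4 higher by 1.5-fold in PRC1DEG, and the other 3 had 4 reads or fewer in Control.

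The farther contacts had the lower medians after OHT. The median was -0.13 for 21 contacts under 50 kb, -0.14 for 103 at 50 to 200 kb, -0.25 for 265 at 200 kb to 1 Mb and -0.44 for 39 beyond 1 Mb. In PRC1DEG the medians were 0.02, 0.07, 0.12 and -0.11. Reads were fewer with distance as well, from a median of 106 in UNT under 50 kb to 43, 15 and 6, and in Control from 76 to 32, 11 and 3. In the farthest class 17 of 39 contacts had at most 3 reads after OHT and 26 had so few in Control. Summed normalized reads gave a smaller difference, at log2 -0.13, -0.12, -0.23 and -0.29 after OHT, and between -0.00 and 0.05 in PRC1DEG. Distance was not separated from depth or from the library that called the contact, and their part in the medians was not tested.

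**Figure D5:**
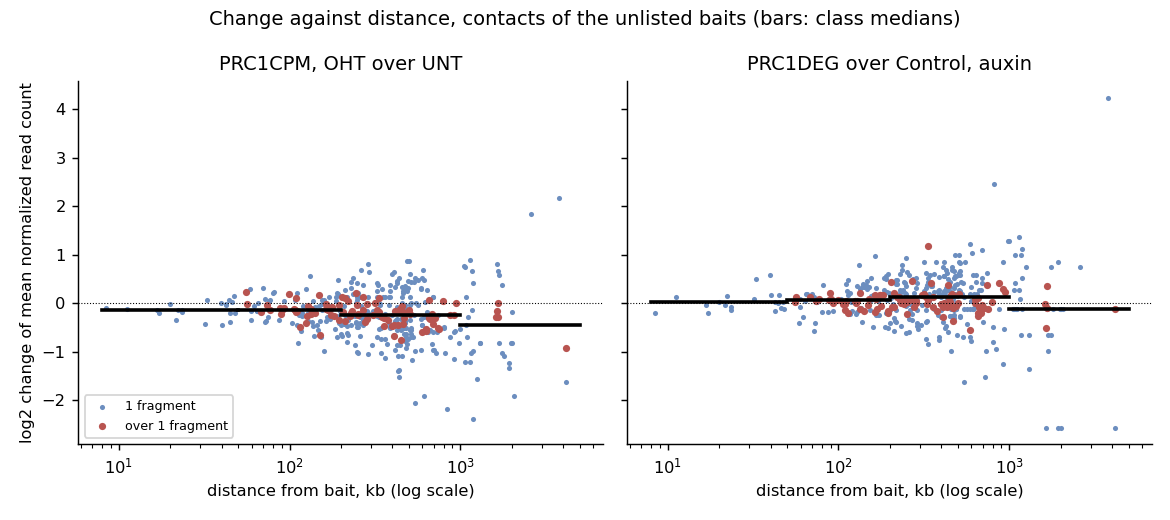
Points are the 428 contacts at their distance from the bait (horizontal axis, kb, log scale) and log2 change of mean normalized read count (vertical axis), for PRC1CPM after OHT (left) and PRC1DEG over Control (right). Black bars are medians in the 4 distance classes, from -0.13 to -0.44 on the left, and the spread widens with distance as reads become few.

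Width made less difference. The 330 contacts of 1 fragment had a median of -0.24 after OHT and 0.13 in PRC1DEG, the 36 of 2 to 10 fragments -0.16 and 0.04, and the 62 wider ones -0.20 and 0.02. In the widest class, with a median of 259.5 reads in UNT, 57 of 62 were lower after OHT (91.9%, beside 73.8% of all 842). By 1.5-fold, 1 was lower (1.61%, beside 26.6% of all). In PRC1DEG 26 of 62 were lower (41.9%, beside 50.2% of all) and 0 by 1.5-fold (21.3% of all). By place, contacts with a TSS inside had medians of -0.17 and 0.09, exonic ones -0.19 and 0.08, intronic ones -0.26 and 0.04 and intergenic ones -0.26 and 0.05. No class of place had a median below 0 in PRC1DEG.

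Among contacts with at least 20 reads in the reference library (212 in PRC1CPM and 168 in the auxin pair), the lowest after OHT were of 1 fragment each. Gadd45b met an exon of Eef2, the translation elongation factor 2 gene, with 31 reads in UNT and 14 after OHT, log2 -1.004 (-1.91 to -0.12), and 10 in Control and 21 in PRC1DEG, log2 0.93 (-0.12 to 2.00). Tagln2 met a fragment next to the TSS of Kcnj10 (24, 11, 27 and 21 reads) and Sox2ot an intergenic fragment 424 kb away (22, 11, 10 and 12), at -0.98 (-2.01 to 0.01) and -0.85 (-1.89 to 0.15). The highest after OHT were an intron of Sgta for Gadd45b (32 and 36 reads), an exon of Ccdc57 for Fasn (55 and 63) and an intron of Specc1l for the Gucd1 and Snrpd3 bait (20 and 23), at 0.30, 0.32 and 0.33. The minimum of 20 reads in the reference library leaves out contacts that were low there, and so limits how high a change can be. The Eef2 and Sox2ot contacts were called in UNT alone, which favours a lower value after OHT. Those in Sgta and Specc1l were called after OHT alone, which favours a higher one. The Eef2 contact was picked as the lowest of the 212, which its interval does not allow for, and the binomial test did not call it.

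In PRC1DEG the lowest were an exon of Rxrg, a retinoid X receptor gene, for Tmco1 (20 reads in Control and 13 in PRC1DEG, log2 -0.74, -1.74 to 0.24), an intergenic fragment nearest to Tpp2 for Ercc5 (21 and 15, -0.61) and an intron of Zbtb7a for Gadd45b (23 and 17, -0.56). The highest were an intron of Fkbp9 for its own bait (22 and 34, 0.50), an exon of Fbh1 for Rbm17 (21 and 33, 0.52) and an intron of Ttll8 for Pim3 (45 and 74, 0.59, 0.06 to 1.12). Of these 6, Ttll8 alone had an interval apart from 0. It was picked as the highest of the 168, which its interval does not allow for, and the binomial test did not call it. The same 3 lowest contacts had 11 and 11, 22 and 21, and 18 and 20 reads in UNT and after OHT, and were not lower there. Each of these 3 was called in Control alone (summit scores 5.97, 5.04 and 5.12), which favours a lower value in PRC1DEG. The Fbh1 contact was called in PRC1DEG alone, which favours a higher one.

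Contacts held the TSS of 92 of 21875 annotated protein-coding genes (0.421%), so lists of this size could meet few of them. Of 21 pluripotency regulators, the TSS of 1, Klf2, lay in a contacted region. The Tpm4 bait met it 184 kb away (chr8:72317488-72319340) with 25, 19, 15 and 20 reads, log2 -0.26 and 0.28. None of 28 PRC1 and PRC2 subunit genes had a TSS inside a contact or within 5 kb (0 contacts). Of 207 genes in developmental families (homeobox and other transcription factor families such as Hox, Pax, Sox and Fox, and Wnt ligands), none had a TSS inside a contact, and 3 contacts lay within 5 kb of 1, near Foxf2 for Uqcrfs1 and near Pou2f1 for Tmco1. Those near Pou2f1 were 1308 and 1303 kb away and had 6 and 6 reads in UNT and 3 and 3 after OHT.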

How the data were processed

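CaptureC was performed in 12 samples, 3 biological replicates of each of 4 groups. Per the methods of the study, reads were aligned to mm10 with Bowtie2 inside HiCUP (versions not given in the sources used here), and CHiCAGO, which weights and pools replicates, scored each pair of DpnII fragments. The authors kept fragments with a score of 5 or more in any sample, merged those under 10 fragments apart, and deposited 1 table of 842 interactions. Its score columns hold the deposited CHiCAGO score of the summit fragment and the score summed over the fragments of the interaction, from which the mean score was computed. Its signal columns hold, per the authors, weighted reads scaled to the reads found on all captured promoters and to how many promoters were captured, so each value is a share of the capture. The table gives 1 value per group, and the replicates are pooled in it.

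Groups were taken from the labels. Interactions were kept when the bait position matched none of 24 listed genes, and baits were named from the GENCODE vM21 basic annotation of GRCm38. All 44 bait and 842 summit fragments began with GATC in that genome, and 24 of 24 left and right capture oligonucleotides were found, so the coordinates fit the build. The value of 1 weighted read was found from the steps between low values (1.12 and 1.22, times 1000, in UNT and OHT). In the auxin libraries it took 2 values, 1.59 and 1.71 in Control and 1.49 and 1.56 in PRC1DEG, which split the baits into a set with 1 unlisted and 18 listed baits and a set with 19 and 6. At a tolerance of 0.1 reads, 100% of values were whole in each group. The lowest non-zero mean normalized read count, 0.000350, was the pseudocount.

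Changes were described by medians, quartiles and counts past a fold of 1.5. Per contact, 95% Wilson intervals were computed from the reads of both pooled libraries. They treat reads as independent molecules, which PCR reads without molecular identifiers are not. A two-sided binomial test was adjusted by Benjamini-Hochberg (0.05) over all interactions and tested on simulated data. Contacts named singly were the highest mean score of each bait (the top 6 baits), the 8 PCGF2-site contacts with the most reads, and the 3 lowest and 3 highest changes in each pair with at least 20 reads in the reference library. Gene lists held pluripotency regulators, PRC1 and PRC2 subunits and developmental families. The contacts and lists were chosen with earlier results of these data known. Python 3.11.15, pandas 2.3.3, numpy 2.4.6, SciPy 1.17.1, matplotlib 3.10.9 and samtools 1.23.1 were used.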

Additional observations from a re-analysis of the deposited data

How the results depend on the processing

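No paired analysis was possible because each deposited column is 1 pool of 3 replicates, and for that reason leaving out a replicate was not run. The limits are therefore those of 4 pooled libraries. Centred on the median of all interactions, the median changes after OHT were 0.0509 for all contacts, 0.0438 at PCGF2 sites and 0.0604 at other sites, the opposite sign to the uncentred values. The listed baits at PCGF2 sites take part in that median. Summed mean counts gave -0.17 for other sites after OHT. The summit fragment in place of the mean over fragments gave median scores of 5.08, 4.18, 3.39 and 3.69 in UNT, OHT, Control and PRC1DEG. At a score of 3 or more, 359, 315, 236 and 271 contacts were called, at 10 or more 5, 4, 0 and 1, and by the mean score 47 in Control and 78 in PRC1DEG. The order within each pair was the same at 3 and 5 and by the mean score in the auxin pair.

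The following settings were chosen after seeing the data. Centred on the other-site contacts of the listed baits, the medians were -0.0499 (all) and -0.0404 (other sites) after OHT and -0.0287 and -0.0308 in PRC1DEG, where the sign turned, and 54 contacts were lower and 35 higher by 1.5-fold after OHT. Contacts called in a library of the other pair had medians of -0.16 (all) and -0.16 (other sites) after OHT, and summed reads gave -0.17 and -0.17. The binomial test called 6 contacts lower after OHT and 1 in PRC1DEG, and 0 higher in either, fewer than by fold. Without contacts at or under 3 reads in both libraries, 16 were lower in PRC1DEG. The cause of these differences was not tested. Of the bait medians, 79 of 80 recomputed values stayed within an order-statistic interval of the median over the contacts of that bait. That interval describes the spread between contacts, which share the reads of their bait, and not counting error. The 1 that moved was Ckap2, to -0.28 after OHT, with the pseudocount 10 times larger. The 104 values of the named contacts stayed within their counting intervals.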

Other observations

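The baits differed in how many of the captured reads fell on their contacts in the Control library against untreated PRC1CPM cells. These are different cell lines captured in separate experiments, with 1 pooled library each, so the values are given without a comparison of conditions. The log2 ratio of the summed normalized read counts, Control over UNT, had a median of 0.26 over the 20 baits and ran from -1.04 for Fkbp9 to 0.57 for Dus1l. Fkbp9 stood below the next bait, Sox2ot, at -0.35. The 19 contacts of Fkbp9 held 914 weighted reads in UNT and 683 after OHT, and 290 in Control and 340 in PRC1DEG. Of these 19 contacts, 15 were called in UNT, 7 after OHT, 2 in Control and 0 in PRC1DEG. That choice of contacts favours lower values in both auxin libraries, and its part in the ratio was not tested.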
